A study of Arabidopsis thaliana with 12 samples.

Results

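The calmodulin-like (CML) genes of Arabidopsis thaliana encode small calcium sensors, and their expression was followed in rosette leaves of 4 genotypes. The members were the genes whose symbol in the platform's probe annotation is CML followed by a number and whose probe set names 1 gene. Of 13350 genes named in this way, 7 met the rule: CML23, CML30, CML37, CML38, CML41, CML42 and CML43, each with 1 probe set. The CML family of the plant is larger, and members that the annotation does not name by a CML symbol were not analysed here, except for AT1G76640, described beside CML38.

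OE1 and OE2 are 2 lines overexpressing TaFLS, the flavonol synthase transgene of the study, fls1-3 is a mutant line named for FLS1, and Col-0 is the wild type, each with 3 arrays called biological replicates. All plants were 6 weeks old and grown in soil with 16 h of light per day at 22 °C and 60% humidity. The labels describe flavonols of leaves and guard cells as lowered in OE1 and raised in OE2 and fls1-3, which conflicts for lines of the same transgene, so the groups are named here as the labels name them. FLS1 has no named probe set among those used here, and the mutant label was not checked. The promoter of the transgene and whether plants were pooled are not given in the sources used here. The p-values therefore measure the spread between these arrays, which may be technical. In whole leaves, fewer cells of a type and less RNA per cell cannot be told apart.

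When a plant cell is wounded, touched, infected or short of oxygen, free calcium in the cytosol rises for seconds to minutes. Calmodulin and the CML proteins bind this calcium through helix-loop-helix motifs called EF hands, change shape and attach to target proteins. CML proteins carry no catalytic domain, so they act through those targets. Many CML genes are themselves switched on quickly by stress in leaves.

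Values are signals on the log2 scale, where a difference of 1 is a doubling, and levels are compared between genotypes within a gene only. The array medians lay between 7.09 and 7.55, with group means of 7.42 in OE1, 7.41 in OE2, 7.296 in fls1-3 and 7.26 in Col-0. Precision is limited by having 3 arrays in each genotype. The leaf label was checked on 7 marker genes of photosynthesis, whose summed signal was 16.4 to 17.3 on every array. The 2 measured root markers, EXPA7 and EXPA18, lay under the array median on all 12 arrays. Of the guard cell lineage markers, 3 are measured, with a summed signal of 10.5 to 10.6 in OE1, 9.53 to 10.2 in OE2 and 8.28 to 9.48 in fls1-3, against 7.87 to 10.2 in Col-0. This sum is nearly all STOMAGEN, a stomatal peptide gene expressed in the mesophyll, while MUTE and SPCH lay under the array median on all 12 arrays, so it does not measure guard cells. The gap between the 3' and 5' ends of control transcripts, a sign of RNA integrity, differed between genotypes. In OE1 it exceeded all Col-0 arrays for 5 of the 6 control sets, with a mean for GAPDH of 2.27 against 1.304 in Col-0. In OE2 it did so for 1 of 6, a ubiquitin set. In fls1-3 the mean gap was smaller than in Col-0 for 6 of 6, without overlap for another ubiquitin set, at 0.204 to 0.290 against 0.437 to 0.715 in Col-0. These values move with the labels, and their part in the OE1 and fls1-3 results below, those of CML38, CML41 and IQD22 among them, was not tested.

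No CML gene passed the threshold of an adjusted p of 0.05 by limma in any of the 6 comparisons between genotypes. The largest differences from Col-0 were a low CML37 and CML23 in OE2 and a high CML38 and CML41 in fls1-3. Of these, CML38 in fls1-3 overlapped Col-0. The values of each gene follow, grouped by role.

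**Figure D1:**
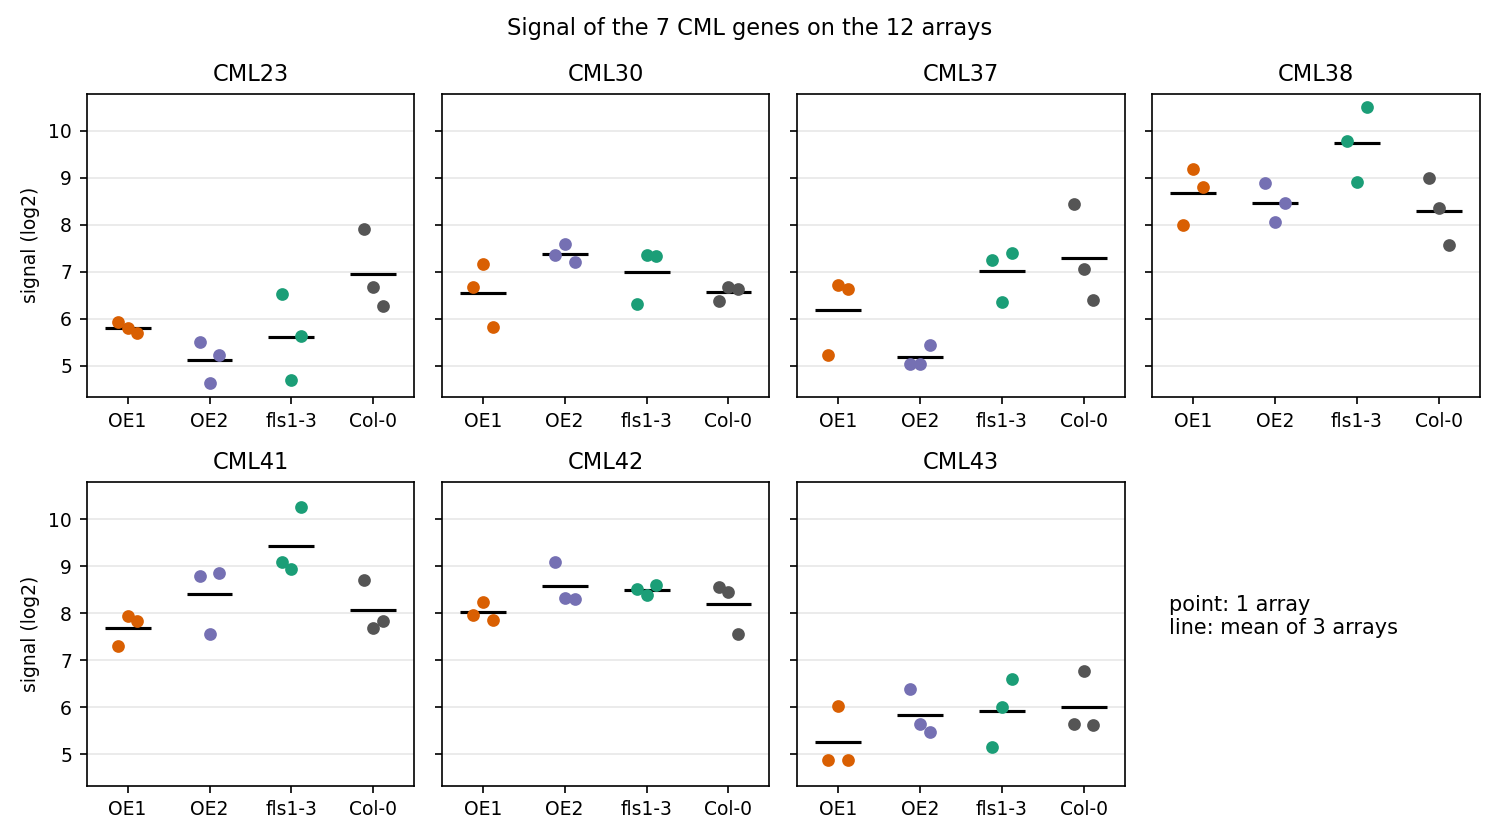
Signal (log2, vertical axis) of each of the 7 CML genes on the 12 arrays, with OE1, OE2, fls1-3 and Col-0 from left to right. Each point is 1 array and each line the mean of 3. CML37 lies at 5.03 to 5.44 in OE2 and at 6.38 or above in Col-0, and CML41 at 8.93 or above in fls1-3.

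CML37 is a wound-induced sensor that promotes jasmonate-based defence against chewing insects and takes part in drought responses. Its signal was 5.22, 6.72 and 6.63 in OE1, 5.04, 5.03 and 5.44 in OE2, and 7.25, 6.34 and 7.40 in fls1-3, against 8.43, 7.05 and 6.38 in Col-0. The OE2 arrays lay below all Col-0 arrays and were tightly grouped, while OE1 and fls1-3 overlapped Col-0. The OE2 difference from Col-0 was -2.12 ± 0.55 (SE, n = 3 against 3), which is 4.34-fold lower, with a 95% interval of -3.32 to -0.92 and a limma adjusted p of 0.118. Without Col-0 replicate 1, the highest array, it was -1.55 (adjusted p = 0.298). The order of the means was Col-0, fls1-3, OE1 and OE2, and each neighbour in that order overlapped the next. CML37 correlated with the array median at r = -0.65 over the 12 arrays, and Col-0 replicate 1 had the lowest median. With every array centred on its median, the OE2 difference was -2.27 (adjusted p = 0.164). Pseudocounts of 16 and 64, added to the linear signal, reduced it to -1.75 and -1.19 (adjusted p = 0.136 and 0.171). With array quality weights it was -1.90 and passed (adjusted p = 0.0455).

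CML42 restrains jasmonate-dependent insect defence and is needed for normal branching of leaf hairs. Its signal was 7.97, 8.23 and 7.86 in OE1, 9.09, 8.32 and 8.29 in OE2, and 8.52, 8.38 and 8.60 in fls1-3, against 8.55, 8.45 and 7.56 in Col-0. Every line overlapped Col-0, and the differences from Col-0 were -0.16 ± 0.28, 0.38 ± 0.28 and 0.31 ± 0.28 in OE1, OE2 and fls1-3 (SE). Over the 3 lines the 95% intervals ran from -0.77 at the lowest to 0.99 at the highest, so a change of 2-fold in either direction lay outside all 3 of them. CML42 had the smallest spread between genotype means of the 7 genes, 0.55.

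CML43 is the closest relative of CML42 and has been linked to responses to pathogens. Its signal was 4.88, 6.01 and 4.87 in OE1, 6.39, 5.64 and 5.46 in OE2, and 5.15, 6.00 and 6.60 in fls1-3, against 5.64, 6.76 and 5.62 in Col-0. All 4 genotypes overlapped, and all 12 values lay under the array medians. The differences from Col-0 were -0.75 ± 0.53, -0.18 ± 0.53 and -0.09 ± 0.53 in OE1, OE2 and fls1-3 (SE), with adjusted p of 0.591, 0.935 and 0.985 by limma.

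CML41 is a sensor of plasmodesmata, the channels between plant cells, which close by callose deposition when bacterial flagellin is perceived. Its signal was 9.08, 8.93 and 10.26 in fls1-3, 8.79, 7.56 and 8.86 in OE2, and 7.30, 7.94 and 7.82 in OE1, against 8.69, 7.68 and 7.83 in Col-0. All 3 fls1-3 arrays lay above all 9 others. The share of all probe sets that did so was not counted. Taken pair by pair, fls1-3 was higher without overlap for 6.75% of all probe sets against Col-0, 8.89% against OE1 and 5.63% against OE2. The difference between fls1-3 and Col-0 was 1.36 ± 0.42 (SE, n = 3 against 3; 2.56-fold), with a 95% interval of 0.44 to 2.28 and an adjusted p of 0.203 by limma. Against OE1 it was 1.74 ± 0.42 (adjusted p = 0.0882) and against OE2 1.02 ± 0.42 (adjusted p = 0.887). The comparison with OE1 had an adjusted p of 0.0429 without Col-0 replicate 1, which enters there through the pooled spread only, and between 0.0198 and 0.246 over all alternatives. Without fls1-3 replicate 3, the highest array, the difference from Col-0 was 0.94 (adjusted p = 0.429).

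CML38 is induced by wounding and by lack of oxygen and gathers in RNA granules of oxygen-starved cells. Its signal was 7.9997, 9.19 and 8.81 in OE1, 8.87, 8.05 and 8.45 in OE2, and 9.77, 8.91 and 10.49 in fls1-3, against 8.98, 8.35 and 7.56 in Col-0. The fls1-3 arrays were the highest as a group, but their lowest fell 0.07 below the highest Col-0 array. The difference between fls1-3 and Col-0 was 1.43 ± 0.44 (SE, n = 3 against 3; 2.69-fold), with a 95% interval of 0.46 to 2.395 and an adjusted p of 0.201 by limma. Against OE2, where the groups did not overlap, it was 1.27 ± 0.44 (adjusted p = 0.759). For CML38 and CML41 the array with the highest signal was fls1-3 replicate 3, which had the lowest array median of its group. Leaving out that array together with Col-0 replicate 1 gave differences from Col-0 of 1.38 for CML38 and 1.25 for CML41, each with an adjusted p of 0.176.

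AT1G76640 is the locus next to CML38 by number, and RefSeq lists CML39 among its synonyms, a synonym it also lists for CML37. AT1G76640 has its own probe set, which the member rule does not take, and its values were looked at after those of CML38. Its signal was 5.48, 5.17 and 6.46 in OE1, 6.71, 4.46 and 1.46 in OE2, and 8.21, 6.41 and 6.42 in fls1-3, against 4.36, 1.56 and 2.54 in Col-0. The OE1 and fls1-3 arrays lay above all Col-0 arrays, whereas OE2 ran from below the lowest Col-0 array to above the highest. Of all probe sets, 14.3% did not overlap between OE1 and Col-0 in either direction, and 6.75% were higher in fls1-3 than in Col-0 without overlap. The difference between fls1-3 and Col-0 was 4.19 ± 1.15 (SE; adjusted p = 0.128 by limma) and that between OE1 and Col-0 was 2.88 ± 1.15 (adjusted p = 0.443). On 11 of 12 arrays AT1G76640 lay under the array median, and its SD within a genotype reached 2.63. With a pseudocount of 64 on the linear signal the differences were 1.45 and 0.69. The difference in fls1-3 passed with array quality weights, at 4.36 (adjusted p = 0.0445).

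CML23 acts with its relative CML24 in the timing of flowering and in nitric oxide accumulation. Its signal was 5.92, 5.81 and 5.69 in OE1, 5.51, 4.62 and 5.21 in OE2, and 6.52, 4.69 and 5.63 in fls1-3, against 7.91, 6.68 and 6.26 in Col-0. The OE1 and OE2 arrays lay below all Col-0 arrays, and 2 of the 3 fls1-3 arrays did. The differences from Col-0 were -1.15 ± 0.54 in OE1, -1.83 ± 0.54 in OE2 and -1.34 ± 0.54 in fls1-3 (SE, n = 3 against 3), with adjusted p of 0.469, 0.173 and 0.397 by limma. The 3 comparisons share the Col-0 arrays, of which replicate 1 was the highest. Without it the differences were -0.66, -1.35 and -0.86. With all arrays and a pseudocount of 64 on the linear signal they were -0.68, -0.95 and -0.72. With array quality weights the fls1-3 difference was -1.78 and passed (adjusted p = 0.0499). All CML23 values but 1 lay under the array medians, and the order of the means was Col-0, OE1, fls1-3 and OE2.

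CML30 differs from the other members in that its product is directed to mitochondria. Its signal was 6.67, 7.17 and 5.81 in OE1, 7.35, 7.58 and 7.19 in OE2, and 6.30, 7.35 and 7.33 in fls1-3, against 6.38, 6.67 and 6.62 in Col-0. The OE2 arrays lay above all Col-0 and all OE1 arrays. The OE2 difference from Col-0 was 0.82 ± 0.38 (SE; 1.76-fold; adjusted p = 0.449 by limma), with a 95% interval of -0.013 to 1.65. For fls1-3 it was 0.44 ± 0.38 and for OE1 -0.01 ± 0.38, the smallest difference of any member from Col-0. Between fls1-3 and OE1 the difference was 0.44 ± 0.38, and with array quality weights it was 1.05 and passed (adjusted p = 0.0359).

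**Figure D2:**
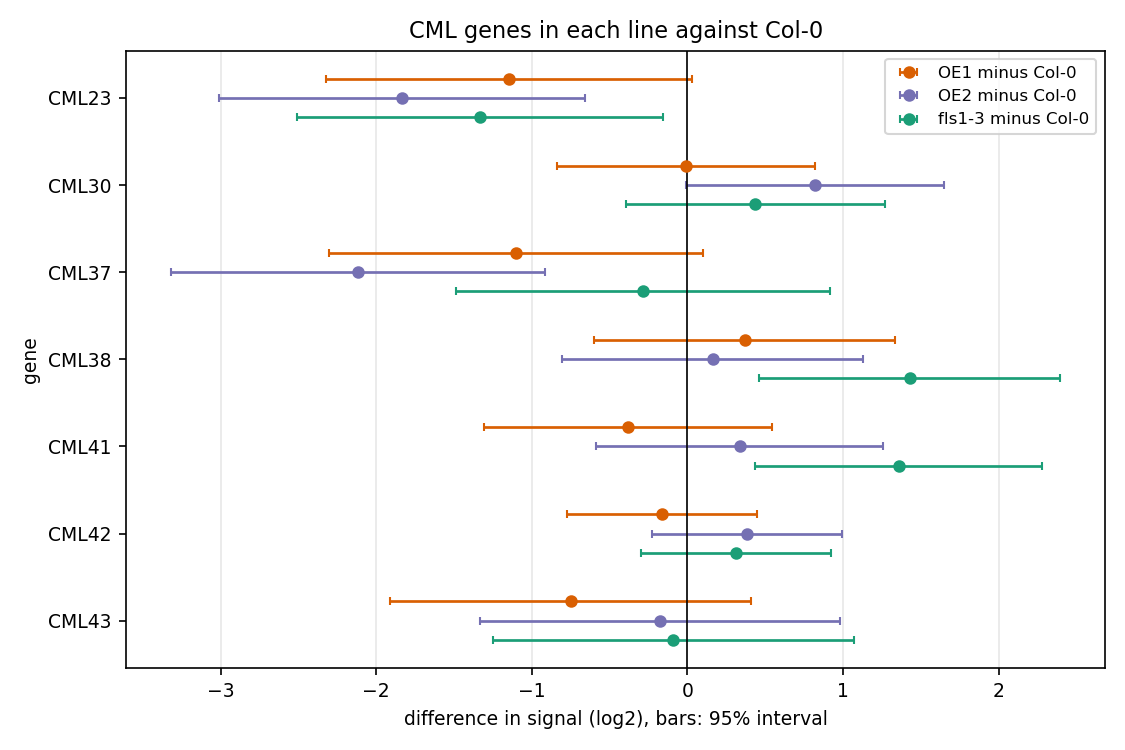
Difference in signal (log2, horizontal axis) of each CML gene, with OE1, OE2 and fls1-3 minus Col-0 from top to bottom within a gene. Points are limma estimates from 3 arrays against 3 and bars are 95% intervals, without adjustment for the number of genes. The intervals that exclude 0 are those of CML23 and CML37 in OE2, and of CML23, CML38 and CML41 in fls1-3.

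Taken by line, the family showed no common direction in OE2 or fls1-3. In OE1, 0 of 7 members passed, as did 0% of all 22746 probe sets, and 0 had an unadjusted limma p under 0.05, against 10.7% of all. In OE1 the signal was lower than in Col-0 for 6 of 7 genes, with a median difference of -0.38 beside 0.11 over all probe sets, and the arrays of OE1 and Col-0 did not overlap for 1, CML23, against 14.3% of all, 5.33% being lower in OE1 without overlap. Without Col-0 replicate 1 that median was -0.096 with 5 of 7 genes lower, and without OE1 replicate 1 it was -0.19. CML30, counted as lower at -0.01, turned sign under pseudocounts and left-out arrays. In OE2, 0 of 7 passed, against 0.989% of all, and 2 had an unadjusted p under 0.05, CML37 and CML23, against 11.3%. The arrays of OE2 and Col-0 did not overlap for 3 genes, against 18.5% of all: CML30 was higher, as were 10.6% of all, and CML23 and CML37 were lower, as were 7.98%. The median difference of the members in OE2 was 0.16, beside 0.083 over all probe sets. When 1 array was left out it was 0.503 (Col-0 replicate 1), -0.21 (Col-0 replicate 3) or -0.046 (OE2 replicate 1), so a direction of the median in OE2 rests on single arrays.

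In fls1-3, 0 of 7 members passed, against 1.2% of all probe sets, and 3 had an unadjusted p under 0.05, CML23, CML38 and CML41, against 10.2%. The arrays did not overlap with Col-0 for 1 gene, CML41, against 12.6% of all, 6.75% being higher in fls1-3. The median difference was 0.31, beside -0.0039 over all probe sets, and it was -0.0014 without Col-0 replicate 3. With 7 genes, a share of 1 to 3 genes against backgrounds of 10.2% to 18.5% is a description of these members.

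The lines were also set against each other, which tests whether their CML levels differ. Between OE1 and OE2, 0 of 7 genes passed, against 0.0264% of all probe sets, and 0 had an unadjusted p under 0.05, against 8.43%. The groups did not overlap for CML23, which was 0.69 ± 0.54 higher in OE1, and for CML30 and CML42, which differed by -0.82 ± 0.38 and -0.55 ± 0.28, that is lower in OE1. These 3 stand against 18.4% of all probe sets, split into 9.54% with OE1 above and 8.87% with OE1 below, and the smallest adjusted p of the 7 was 0.597.

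Between fls1-3 and OE1, 0 of 7 passed, against 0.554% of all, and CML38 and CML41 had an unadjusted p under 0.05, against 15.7%. In this comparison CML41 and CML42 were higher on every fls1-3 array than on every OE1 array, against 8.89% of all probe sets, and 20.7% did not overlap in either direction. Between fls1-3 and OE2, 0 of 7 passed, against 0.022% of all, and 3 had an unadjusted p under 0.05, against 5.44%. These were CML37, CML38 and CML41, all higher in fls1-3 without overlap, where 5.63% of all probe sets were higher without overlap and 12.6% did not overlap in either direction. CML37 had the largest difference there, 1.83 ± 0.55 (adjusted p = 0.592). A test of any difference among the 4 genotypes, limma's moderated F test, passed 0 of 7 members, against 1.03% of all. Its adjusted p was lowest for CML41, 0.185, and CML37, 0.200, and 4 members had an unadjusted p under 0.05, against 13.2%.

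The spread between replicate arrays differed among the members. CML38 had a residual SD within genotypes of 0.65, where the 500 probe sets nearest in mean signal had a median of 0.25, and CML41 had 0.61 against 0.26. These lay above 91.0% and 92.0% of those neighbours. CML37 had 0.74 against 0.48, above 80.2%. CML23 and CML43 were ordinary for their dim signal, at 0.67 against 0.59 and 0.64 against 0.63. Genotype accounted for 65.0% of the variance of CML37, 62.9% of CML41 and 60.3% of CML23, down to 24.0% for CML43, beside a median of 31.9% over all probe sets.

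Within a genotype, several CML genes were high on the same arrays. After each genotype's mean was removed, CML37 and CML38 correlated at r = 0.86 over the 12 arrays, CML38 and CML41 at 0.80, and CML37 and CML41 at 0.66. Over all 21 pairs the median was 0.47 and 16 pairs were positive. The lowest was CML23 with CML30, at -0.48. In OE1, replicate 2 held the highest value of 6 of the 7 genes, and in fls1-3, replicate 3 held the highest of 5. In Col-0, replicate 1 held the highest of 5 and replicate 3 the lowest of 5. The array medians were 7.302 for OE1 replicate 2, 7.12 for fls1-3 replicate 3 and 7.09 for Col-0 replicate 1, each the lowest of its genotype. Correlations with the array median were negative for all 7 members, from -0.68 for CML43 to -0.18 for CML30, and the part of the array medians in the pattern was not tested.

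With the genotype means included, the 7 genes did not move as a block. Of 21 pairs, 17 had a positive r over the 12 arrays, with a median of 0.29. The highest was CML38 with CML41 at 0.82 and the lowest CML23 with CML30 at -0.63. CML37 and CML38, so alike within genotypes, correlated at 0.53 with the genotype means kept. In OE2 CML37 averaged 5.17, against 7.29 in Col-0, while CML38 averaged 8.46, against 8.30. All these correlations share the arrays and their scaling and are descriptions.

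**Figure D3:**
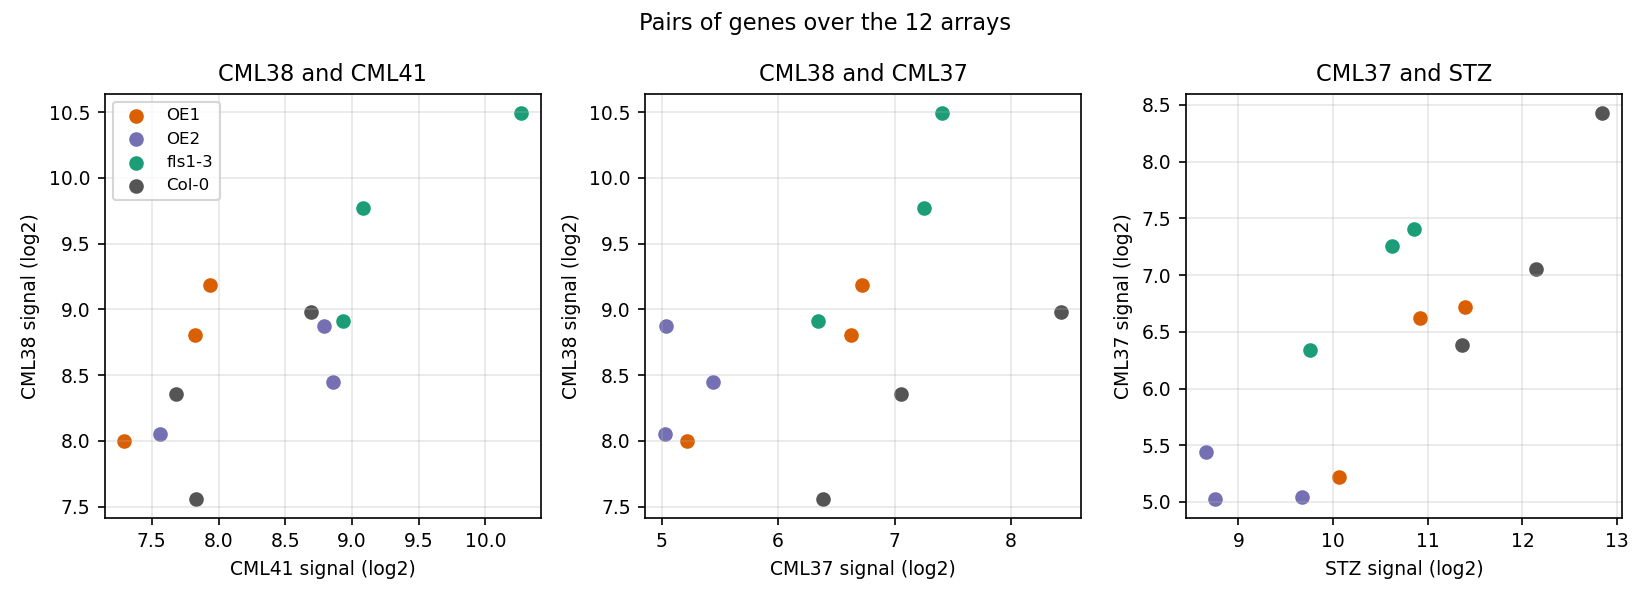
Signals (log2, both axes) of 3 pairs of genes, with 1 point per array and colours for OE1, OE2, fls1-3 and Col-0. CML38 and CML41 run together, in the middle panel the OE2 arrays lie at low CML37, 5.03 to 5.44, and CML37 follows STZ at the right, with r = 0.84.

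With the genotype means kept, CML23 and CML37 were high on arrays where genes of the rapid stress response were high, to differing degrees. A list of 36 names of such genes, in which ZAT10 is a second name of STZ, gave 3 measured genes. These are the transcription factor genes ORA47, STZ and WRKY53. Their median difference from Col-0 was -1.33 in OE1, -3.09 in OE2 and -2.34 in fls1-3. All 3 fell in OE2 by limma, where 0.989% of all probe sets passed, and ORA47 and WRKY53 fell in fls1-3, where 1.2% did. STZ, a zinc-finger repressor gene, stood at 9.68, 8.75 and 8.65 in OE2 and 10.62, 9.75 and 10.86 in fls1-3, against 12.84, 12.15 and 11.36 in Col-0. Over the 12 arrays STZ correlated with CML23 at r = 0.86 and with CML37 at 0.84, but with CML38 at 0.17 and CML41 at -0.04. ORA47, of jasmonate signalling, gave 0.79, 0.71, -0.05 and -0.23 with the same 4 genes. WRKY53, of leaf senescence and defence, gave the weakest values with CML23 and CML37, 0.67 and 0.54, and -0.26 and -0.42 with CML38 and CML41. CML30 went the other way, at -0.56 with STZ, -0.59 with ORA47 and -0.52 with WRKY53. In that order CML42 gave -0.09, -0.28 and -0.38, and CML43 gave 0.21, 0.12 and 0.02. These correlations keep the genotype means, and CML23, CML37 and all 3 transcription factor genes were lower in OE2 than in Col-0. Correlations with those means removed were not calculated here, and the low values for CML38 and CML41 do not describe the arrays within a genotype. CML38 and STZ ranked the arrays alike in Col-0, OE1 and fls1-3, where CML38 was 9.77, 8.91 and 10.49. In OE2 they shared only the highest array, replicate 1. CML41 ranked the arrays as STZ did in OE1 and fls1-3, but not in Col-0 or OE2. In fls1-3, ORA47 and WRKY53 were below Col-0 while CML38 and CML41 had their highest means, 9.73 and 9.43.

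For each CML gene the 2 named genes of at least median signal with the most similar profile over the 12 arrays were sought among about 5946 candidates. CML37 was most like AT3G62260, at r = 0.94, and PUB23, at 0.93, a ubiquitin ligase gene that dampens immune responses. CML23 was most like AT5G16200, at r = 0.94, and AT1G23710, at 0.93. For CML38 these were AT4G35985, at 0.94, and AT1G32120, at 0.93, and for CML41 AT5G57150, at 0.94, and AT2G43320, at 0.92. CML42 gave AT4G16150, at 0.90, and AT3G16530, at 0.89. For CML43 they were AT1G49500 and AT4G22830, each at 0.89, and for CML30 AT3G06150 and AT5G25280, at 0.87 and 0.85. With so many candidates and 12 arrays, high values are found for any gene.

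Among 20 other genes of calcium signalling, 1 passed in fls1-3 against Col-0, where 1.2% of all probe sets did, and the same gene in fls1-3 against OE1, where 0.554% did. A list of 260 names of sensors, kinases, channels, pumps and calmodulin-binding proteins had 20 genes measured under a name. These were 12 IQD genes, 7 glutamate receptor-like channel genes, and AT1G53210, for the sodium and calcium exchanger NCL. IQD products bind calmodulin through a repeated IQ motif and often sit on microtubules. No gene listed as a sensor or kinase was among the 20, so they do not stand for calcium signalling as a whole. In fls1-3 IQD22 rose, at 8.93, 8.59 and 8.997 against 7.17, 7.79 and 7.23 in Col-0. The difference was 1.44 ± 0.22 (SE, n = 3 against 3; adjusted p = 0.00724 by limma). The groups did not overlap, as for 12.6% of all probe sets, and the call held whichever array was left out, at differences of 1.33 to 1.64. A fit restricted to the 6 arrays of fls1-3 and Col-0 lost it (adjusted p = 0.118).

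IQD22 was also higher in fls1-3 than in OE1, at 7.51, 7.80 and 7.59 in OE1, by 1.203 ± 0.22 (adjusted p = 0.0356). That call was lost without any single OE1, OE2 or fls1-3 array (adjusted p up to 0.159), and with arrays centred on their medians, without the intensity trend, with only the groups compared or with the replicate block (adjusted p between 0.0542 and 0.0990). In OE2 IQD22 stood at 8.14, 8.57 and 8.27, a difference of 0.93 ± 0.22 from Col-0 that did not pass (adjusted p = 0.0759). The OE2 value passed after dim probe sets were left out (adjusted p = 0.0457).

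The other 19 genes of the list did not pass in fls1-3. Of these, 3 are named after their values were seen. IQD24 had the next smallest adjusted p, 0.0985, with a difference of -0.78 ± 0.20 and signals of 7.93, 8.25 and 8.27 in fls1-3 against 9.03, 8.98 and 8.78 in Col-0. GLR3.3, a channel gene that carries wound signals from leaf to leaf, differed from Col-0 by 0.24 ± 0.15, 0.18 ± 0.15 and 0.15 ± 0.15 in OE1, OE2 and fls1-3, and GLR3.6, its partner in that role, by 0.31, 0.42 and -0.30. None of the 20 passed in OE1, OE2 or between OE1 and OE2 or fls1-3 and OE2. Over the list the median difference from Col-0 was 0.03 in OE1, 0.23 in OE2 and 0.15 in fls1-3, beside 0.11, 0.083 and -0.0039 over all probe sets. Over left-out arrays the list's median ran from -0.076 to 0.13 in OE1, 0.18 to 0.28 in OE2 and -0.016 to 0.23 in fls1-3.

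**Figure D4:**
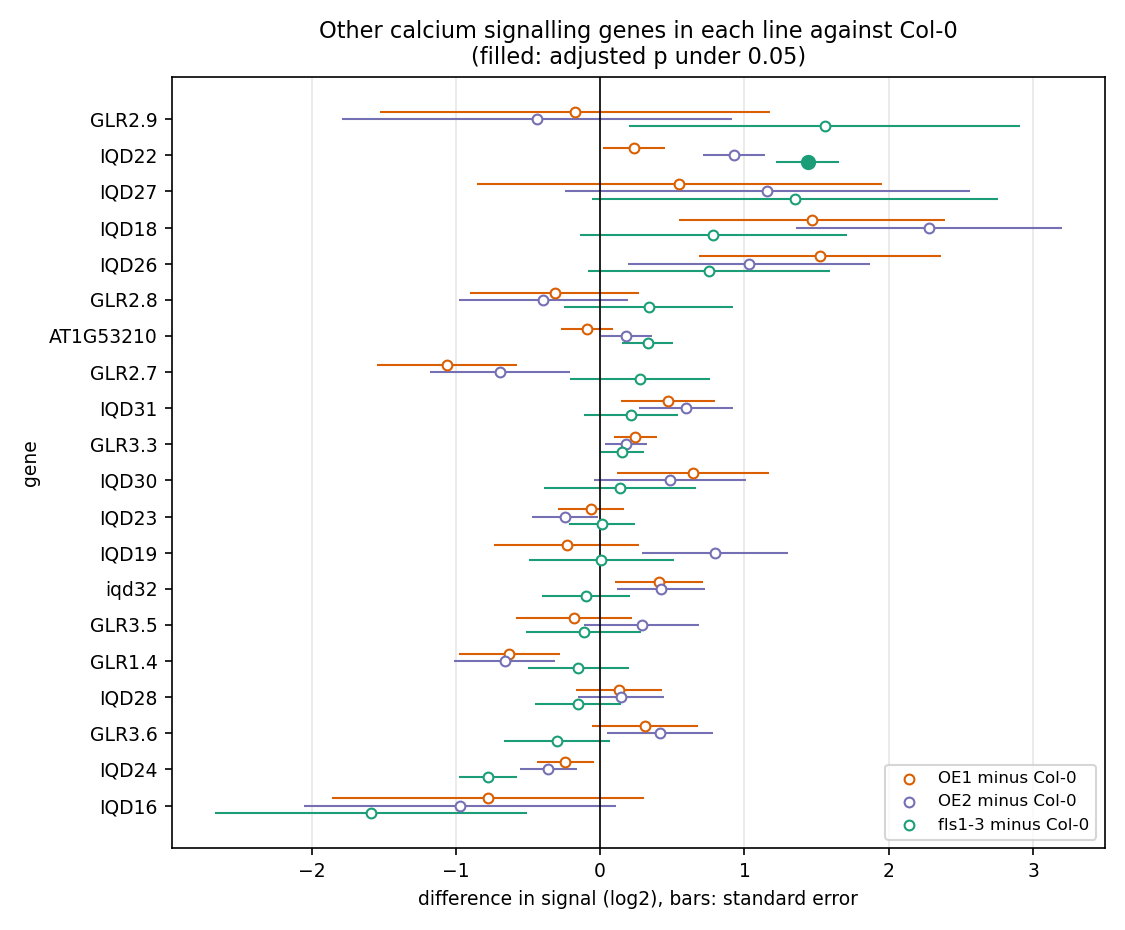
Difference in signal (log2, horizontal axis) of 20 other calcium signalling genes in OE1, OE2 and fls1-3 minus Col-0, ordered by the value in fls1-3. Bars are standard errors from limma and the filled point marks an adjusted p under 0.05, which IQD22 alone reaches in fls1-3, at 1.44.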

How the data were processed

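The deposited table holds log2 signals of 22810 probe sets on 12 arrays. The authors used MAS5, per the submitters' processing notes, which name no version. Per the labels' protocols, cRNA came from 6 µg of RNA extracted with Trizol and was hybridised to ATH1 arrays. The values have a floor of 0, and the 2% trimmed mean of the linear signal was 500.05 on each array, so they had been scaled to a common target. Names come from GEO's platform annotation, which can be old, and locus names and synonyms from RefSeq (TAIR10.1).

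After 64 control probe sets were left out, limma 3.58.1 in R 4.3.3 was fitted to 22746 probe sets and all 12 arrays, with 1 coefficient per genotype, an intensity trend and 8 residual degrees of freedom. Benjamini-Hochberg adjustment ran over all probe sets, at 0.05. There was no filter. The members and lists were chosen with earlier results of these data known. CP1 was left out of the calcium list because the annotation gives that symbol to another locus. All members were named, with the 2 most similar genes each, and list genes that passed. IQD24, GLR3.3 and GLR3.6 were named after their values were seen. Alternatives were quantile normalization, median centring, leaving out probe sets below the 40th percentile of mean signal, pseudocounts of 16 and 64 on the linear signal, only the groups compared, no trend, array weights, a replicate block and leaving out each array. A fit without fls1-3 replicate 3 and Col-0 replicate 1, the arrays of lowest median, was added after the data were seen. The fit was tested on 10 simulations of OE2 against Col-0, with 200 of 22746 probe sets changed. It recovered 20.7% of log2 changes of 1 and 51.1% of log2 changes of 2, with 3.5 false calls on average. A gene that did not pass may therefore still differ.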

Additional observations from a re-analysis of the deposited data

How the results depend on the processing

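The count of CML genes past the threshold was 0 in each comparison and stayed 0 under most alternatives. With array quality weights it was 1 in OE2 against Col-0 (CML37, adjusted p = 0.0455), 1 in fls1-3 against Col-0 (CML23, 0.0499), 2 in fls1-3 against OE1 (CML41, 0.0198, and CML30, 0.0359) and 1 in the F test. Leaving out 1 array gave 0 to 1 in fls1-3 against OE1 and 0 in the others. With the replicate block the count was 0 throughout. Same-numbered arrays of different genotypes correlated at r = -0.72 to 0.75 after removal of genotype means (median 0.042), and arrays with other numbers at a median of 0.014, so the numbers were not taken to pair the arrays. Of 912 differences of single CML genes under alternatives, 885 kept their sign. Many of these could not turn, because several alternatives leave the difference itself unchanged. These are the filter, no trend, only the groups compared, the replicate block and leaving out an array of a genotype not compared. No CML difference had passed in the main fit. Against Col-0, those among the 27 that turned were: CML30 in OE1 (0.0066 and 0.020 with pseudocounts of 16 and 64, and -0.32 to 0.36 over left-out arrays), CML38 in OE1 (-0.0019 to 0.71 over left-out arrays), CML42 in OE1 (-0.48 to 0.017, and 0.017 without the lowest-median arrays), CML38 in OE2 (-0.21 to 0.50), CML43 in OE2 (-0.46 to 0.20), CML37 in fls1-3 (-0.74 to 0.28, and 0.082 without the lowest-median arrays), CML42 in fls1-3 (-0.0014 to 0.49) and CML43 in fls1-3 (-0.43 to 0.29). Between lines these were CML38 in OE1 against OE2 (-0.056 to 0.54), CML23 in fls1-3 against OE1 (-0.64 to 0.27), and in fls1-3 against OE2 CML23 (-0.16 with array quality weights), CML42 (0.042 with median centring, -0.21 to 0.19 over left-out arrays) and CML43 (-0.25 to 0.47, and -0.25 without the lowest-median arrays). The cause was not tested. Counts over all probe sets moved more: over left-out arrays and over the other alternatives they were 0 to 22 and 0 to 22 in OE1 against Col-0, 66 to 303 and 93 to 671 in OE2 (225 as reported), 103 to 369 and 31 to 1032 in fls1-3 (272), 4 to 19 and 4 to 532 between OE1 and OE2 (6), 17 to 578 and 20 to 3783 between fls1-3 and OE1 (126), 3 to 11 and 1 to 117 between fls1-3 and OE2 (5), and 93 to 398 and 54 to 2567 in the F test (235), the highest with array quality weights. Of the CML genes, CML23, CML30, CML37 and CML43 lay under the array median on at least 9 of 12 arrays, and background was not measured here.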
